A study of Homo sapiens with 24 samples.

Results

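Homologous recombination repairs broken DNA by copying an intact sister sequence, and 38 genes of this pathway and its partners were described here in T-47D, an established line of ER-positive luminal breast cancer cells. They were taken by symbol from the count tables, 38 of 26364 genes, and comprised 5 recombination mediators, 6 end resection genes, 8 strand exchange cofactors, 10 Fanconi anemia genes, 2 nuclease genes, 5 checkpoint genes and 2 mismatch repair genes. The cells were clones whose endogenous ESR1 gene, which encodes estrogen receptor α (ER), was either WT or mutated to encode Y537S or D538G, 2 clones for each genotype. Clones were kept without hormones and transfected at 10 nM with a miRNA mimic, a miRNA inhibitor or the matching negative control, and poly-A RNA was collected 24 h later. In WT clones the mimics were those of hsa-miR-301b-3p, hsa-miR-331-3p and hsa-miR-181c-5p, and in D538G clones those of hsa-miR-301b-3p and hsa-miR-181c-5p, each set beside a mimic negative control. In Y537S clones the mimics of hsa-miR-301b-3p and hsa-miR-331-3p were set beside that control, and an inhibitor of hsa-let-7f-5p beside its own negative control. Each of the 12 conditions had 1 library per clone. A genotype is therefore known here only through 2 clones, so a difference between ER genotypes and a difference between clones cannot be told apart.

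In homologous recombination the broken end is first cut back to single strands by the resection enzymes. BRCA2, guided by BRCA1 and PALB2, then acts on the exposed strand, and the strand exchange cofactors help the search for the matching sequence. The Fanconi anemia proteins open crosslinked DNA for the same repair, the ATM and ATR kinases signal the damage to the cell cycle, and many of these genes are known to be transcribed mainly in S and G2 phase.

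A miRNA binds mRNAs through its seed, bases 2 to 8, most often in the 3′UTR, and bound mRNAs tend to fall. The mature sequences of the transfected miRNAs, from RefSeq (GRCh38.p14) with the seed in capitals, are shown because the seed decides which members hold a match. The 4 seeds differed from each other.
hsa-miR-301b-3p: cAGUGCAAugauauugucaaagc
hsa-miR-331-3p: gCCCCUGGgccuauccuagaa
hsa-miR-181c-5p: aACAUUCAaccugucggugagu
hsa-let-7f-5p: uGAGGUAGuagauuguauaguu

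In the annotated 3′UTRs (GENCODE v44 on GRCh37/hg19, canonical transcript), the miR-301b match TTGCACT was found in 8 members, which were ATM, FANCA, NBN, RAD51B, RAD51D, RBBP8, TOPBP1 and XRCC2. This was 21.1% of the 38 members, beside 14.2% of 18656 genes with a 3′UTR. The miR-331 match CCAGGGG stood in 6 members (BLM, FANCA, FANCC, FANCF, RAD51D and SLX4; 15.8% beside 14.1%), the miR-181c match TGAATGT in 6 (ATM, CHEK1, FANCM, NBN, SLX4 and TOPBP1; 15.8% beside 19.5%) and the let-7f match CTACCTC in 3 (CHEK1, DNA2 and RAD51D; 7.89% beside 9.87%). Some of the matches in members that were called lower with the same mimic follow, each as 30 bases of the transcript strand with the match in capitals. Of these, the FANCA window for miR-301b and the ATM window at the far end of its 3′UTR for miR-181c had the A after the match that extends it to 8 bases.
RBBP8, miR-301b, chr18:20606374-20606403 (+): ggcgctttcattTTGCACTctaacttaaga
FANCA, miR-301b, chr16:89804919-89804948 (-): atggagctcttgTTGCACTaaaaagtggat
ATM, miR-181c, chr11:108236346-108236375 (+): tgtgggttttttTGAATGTtggttttaata
ATM, miR-181c, chr11:108239748-108239777 (+): ttttagtactatTGAATGTattactttact
TOPBP1, miR-181c, chr3:133320023-133320052 (-): aaattgaaagccTGAATGTgactgtgatag
FANCA, miR-331, chr16:89804560-89804589 (-): gtggttccgcctCCAGGGGcagggccttgt

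The 24 libraries held 31379962 to 50526442 counts (median 39878595), and the lowest count of a member in any library was 99, for FANCB. All 38 members passed the filter on low counts in every comparison. Luminal markers were present in every library (GATA3 1365 to 1711 CPM, counts scaled to a common library size with TMM factors; EPCAM 145 to 198 CPM), and the basal, blood and endothelial markers KRT5, KRT14, PTPRC and PECAM1 stayed at or below 0.355 CPM. VIM was at most 1.97 CPM. The stromal marker COL1A1 was the exception among 6 markers of other cell types, at 47.5 to 81.2 CPM. In bulk RNA, fewer cells that transcribe a gene and less of its RNA per cell cannot be told apart.

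Without any miRNA mimic, most of the 38 genes were higher in the mutant clones than in the WT clones. In Y537S cells given the mimic negative control, 29 members were higher and none lower (edgeR quasi-likelihood test, Benjamini-Hochberg adjusted p under 0.05), 76.3% of members, beside 29.0% of 15106 genes called in either direction and 16.3% called higher. In D538G cells 28 members were higher and 1 lower, beside 38.9% of 14942 genes called, 20.4% higher and 18.5% lower. The median log2 fold change of the members was 0.99 in Y537S and 0.73 in D538G cells, beside -0.00264 and -0.000776 over all genes tested. Both comparisons share the WT libraries. The p-values set a difference against the spread between the 2 clones of a group, with each gene's spread estimated partly from all genes tested. They do not reach beyond these clones.

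**Figure D1:**
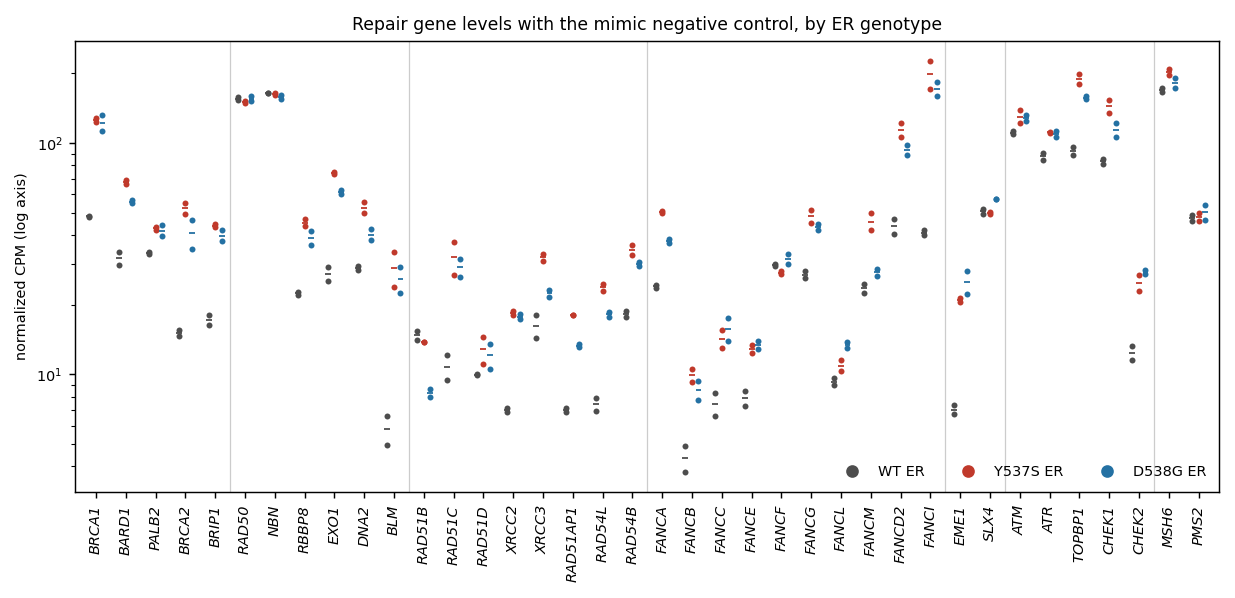
Normalized level (CPM, log axis) of each of the 38 repair genes in the 2 clones of WT (grey), Y537S (red) and D538G (blue) cells given the mimic negative control; points are libraries and dashes the means of 2, with genes grouped by role between the vertical lines. The grey points lie below the coloured ones for most genes, with RAD50, NBN and PMS2 among those where they lie together and RAD51B the gene where D538G lies lowest.

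Among the mediators, BRCA1 was 48.5 and 47.8 CPM in WT clones D1 and D4, 123 and 128 in Y537S clones 1 and 2 and 113 and 132 in D538G clones A5 and C2. BRCA2 was 15.6 and 14.7 CPM in WT, 55.2 and 49.3 in Y537S and 34.98 and 46.7 in D538G clones. Neither gene overlapped between WT and mutant clones, and the log2 fold change against WT was 1.40 ± 0.08 (SE) for BRCA1 and 1.80 ± 0.11 for BRCA2 in Y537S cells (edgeR adjusted p = 0.000116 and 0.000124), with 1.33 ± 0.10 and 1.42 ± 0.15 in D538G cells (edgeR adjusted p = 1.85e-05 and 0.000102). PALB2, which joins the 2 proteins, was much less different at 33.9 and 33.2 CPM in WT, 42.2 and 43.4 in Y537S and 39.7 and 44.04 in D538G clones, log2 fold changes of 0.37 ± 0.10 and 0.30 ± 0.09 (edgeR adjusted p = 0.0292 and 0.0307). BARD1, the partner of BRCA1 in its ubiquitin ligase, and BRIP1, a helicase bound to BRCA1, were also higher in both mutants, by 2.16 and 2.59-fold in Y537S and 1.74 and 2.30-fold in D538G cells.

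In each mutant 4 of the 6 resection genes were higher. RAD50 and NBN, subunits of the MRN complex that recognises the break, were at 153 and 158 and at 164 and 164 CPM in the WT clones, and neither was called in either mutant (log2 fold changes -0.03 ± 0.07 and 0.01 ± 0.07 in Y537S, -0.01 ± 0.07 and -0.07 ± 0.07 in D538G cells). RBBP8, whose product CtIP starts resection together with MRN, was 21.9 and 22.8 CPM in WT, 46.97 and 43.6 in Y537S and 36.3 and 41.6 in D538G clones, with no overlap and log2 fold changes of 1.03 ± 0.10 and 0.79 ± 0.11 (edgeR adjusted p = 0.000631 and 0.000490). The nucleases EXO1 and DNA2, which extend the cut, were higher by 2.77 and 1.84-fold in Y537S and 2.25 and 1.38-fold in D538G cells. BLM, a helicase of resection and of the late unwinding step, had the largest fold of the members in both mutants, within 1 SE of that of FANCI: 4.96 and 6.63 CPM in WT, 33.96 and 23.9 in Y537S and 22.5 and 29.03 in D538G clones, log2 fold changes of 2.34 ± 0.22 and 2.14 ± 0.19 (edgeR adjusted p = 0.000462 and 4.59e-05).

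Of the 8 strand exchange cofactors, 6 were higher in each mutant. RAD54L, a motor that helps the strands pair, was 6.97 and 7.94 CPM in WT, 24.6 and 22.95 in Y537S and 17.7 and 18.6 in D538G clones, a log2 fold change of 1.69 ± 0.15 in Y537S cells (edgeR adjusted p = 0.000334). RAD51C was 3.00-fold and XRCC2 2.65-fold higher in Y537S cells, and 2.66 and 2.51-fold in D538G cells. RAD51B, a paralog of the same BCDX2 complex as these 2, was not called in Y537S and was lower in D538G cells: 15.4 and 14.1 CPM in WT, 13.9 and 13.8 in Y537S and 7.99 and 8.68 in D538G clones, so that D538G cells alone lay below both other genotypes, at a log2 fold change of -0.84 ± 0.15 against WT (edgeR adjusted p = 0.00212). RAD51D was not called in either mutant.

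Of the 10 Fanconi anemia genes, 8 were higher in each mutant, though not the same 8. FANCI, which with FANCD2 forms the clamp that the core complex ubiquitinates, was 42.1 and 39.8 CPM in WT, 226 and 171 in Y537S and 159.9 and 183 in D538G clones, log2 fold changes of 2.29 ± 0.13 and 2.05 ± 0.09 (edgeR adjusted p = 0.000115 and 2.58e-06). FANCD2 was 46.9 and 40.3 CPM in WT, 122 and 107 in Y537S and 89.04 and 98.2 in D538G clones, with log2 fold changes of 1.40 ± 0.11 and 1.09 ± 0.10 (edgeR adjusted p = 0.000252 and 5.66e-05). Core complex genes differed less than FANCI, but some came near FANCD2. FANCB, at a mean of 1.44 CPM per kilobase of transcript in WT, was 3.29 in Y537S and 2.84 in D538G cells. FANCC, at 1.63 in WT, was 3.11 and 3.44, and FANCD2, at 8.56, was 22.4 and 18.4. Not all core complex genes were called in both mutants. FANCM, the translocase that brings the core complex to stalled forks, was called in Y537S cells only (49.6 and 41.9 CPM beside 24.7 and 22.4 in WT; edgeR adjusted p = 0.00155), with D538G clones at 26.7 and 28.5 CPM, and FANCL, the ubiquitin ligase, in D538G cells only (log2 fold change 0.52 ± 0.15, edgeR adjusted p = 0.0204); the difference between the mutants was not tested. FANCF was called in neither.

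EME1, the partner of the MUS81 nuclease, was 6.75 and 7.34 CPM in WT, 21.3 and 20.6 in Y537S and 22.2 and 28.1 in D538G clones, 3.01-fold and 3.53-fold higher (edgeR adjusted p = 0.000400 and 4.50e-05). SLX4, the scaffold that holds MUS81-EME1 and other nucleases, was 51.7 and 49.5 CPM in WT, 49.3 and 50.3 in Y537S and 57.1 and 57.2 in D538G clones and was not called. The checkpoint kinase ATM was not called either, at 113 and 109 CPM in WT, 138 and 122 in Y537S and 125 and 133 in D538G clones. In the ATR branch the kinase ATR was slightly higher (90.4 and 84.8 CPM in WT, 111 and 111 in Y537S, 106 and 113 in D538G; log2 fold changes 0.36 ± 0.08 and 0.31 ± 0.08, edgeR adjusted p = 0.0152 and 0.0135). Its activator TOPBP1 was 2.07 and 1.69-fold higher and its target CHEK1 1.75 and 1.36-fold higher, CHEK1 lying at 81.5 and 85.2 CPM in WT, 135 and 153 in Y537S and 106 and 122 in D538G clones. MSH6, which senses mismatches, was 172 and 166 CPM in WT and 197 and 209.6 in Y537S clones (log2 fold change 0.28 ± 0.08, edgeR adjusted p = 0.0342) and was not called in D538G clones, at 173 and 190.1 CPM. PMS2 was called in neither mutant. Reads of PMS2, CHEK2 and FANCD2 may be shared with pseudogene copies, so their values are uncertain.

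Per kilobase of transcript, MSH6 had the highest mean of the members in each genotype given the mimic negative control, at 39.7 ± 1.09 CPM per kb (SD, n = 2) in WT, 47.6 ± 2.18 in Y537S and 42.6 ± 2.84 in D538G cells, and RAD51D the lowest, at 1.00 ± 0.00762, 1.29 ± 0.244 and 1.21 ± 0.215 CPM per kb. FANCI was second in both mutants, at 41.9 ± 8.10 CPM per kb in Y537S and 36.2 ± 3.40 in D538G cells, and its spread overlapped that of MSH6 in Y537S cells and did not separate it from NBN, which followed at 35.3 ± 0.661 and 34.1 ± 1.01 CPM per kb. Transcript lengths were those of the canonical transcripts and not of the gene models that were counted. RAD51D has an annotated 3′UTR of 8732 bases in this transcript, which lowers its value per kb.

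More members changed with miR-331 in Y537S cells than in any other treatment. With it 17 members fell and 1 rose (edgeR, adjusted p under 0.05), 47.4% of the 38 beside 33.0% of 14877 genes, of which 15.8% were lower and 17.2% higher. The members' median log2 fold change was -0.32 and that of all genes -0.0101. BRCA2 (chr13:32889645-32974405, hg19) was 17.7 and 19.3 CPM in clones 1 and 2 with the mimic, beside 55.2 and 49.3 with the mimic negative control. XRCC2 (chr7:152341861-152373226) was 6.04 and 6.30 CPM beside 17.97 and 18.7, and FANCB (chrX:14861527-14891191), a core complex subunit, 3.07 and 3.52 CPM beside 10.6 and 9.30. In each of the 3 genes the treated clones lay far below the control clones, at log2 fold changes of -1.48 ± 0.12 (SE), -1.56 ± 0.15 and -1.57 ± 0.21 (edgeR adjusted p = 0.00605, 0.00618 and 0.00756), and none of them held a miR-331 seed match anywhere in the canonical transcript. FANCM fell from 49.6 and 41.9 to 16.7 and 21.9 CPM (-1.23 ± 0.17, edgeR adjusted p = 0.00806) and ATM from 138 and 122 to 53.4 and 62.6 CPM (-1.15 ± 0.12, edgeR adjusted p = 0.00618), again without a match in the transcript.

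**Figure D2:**
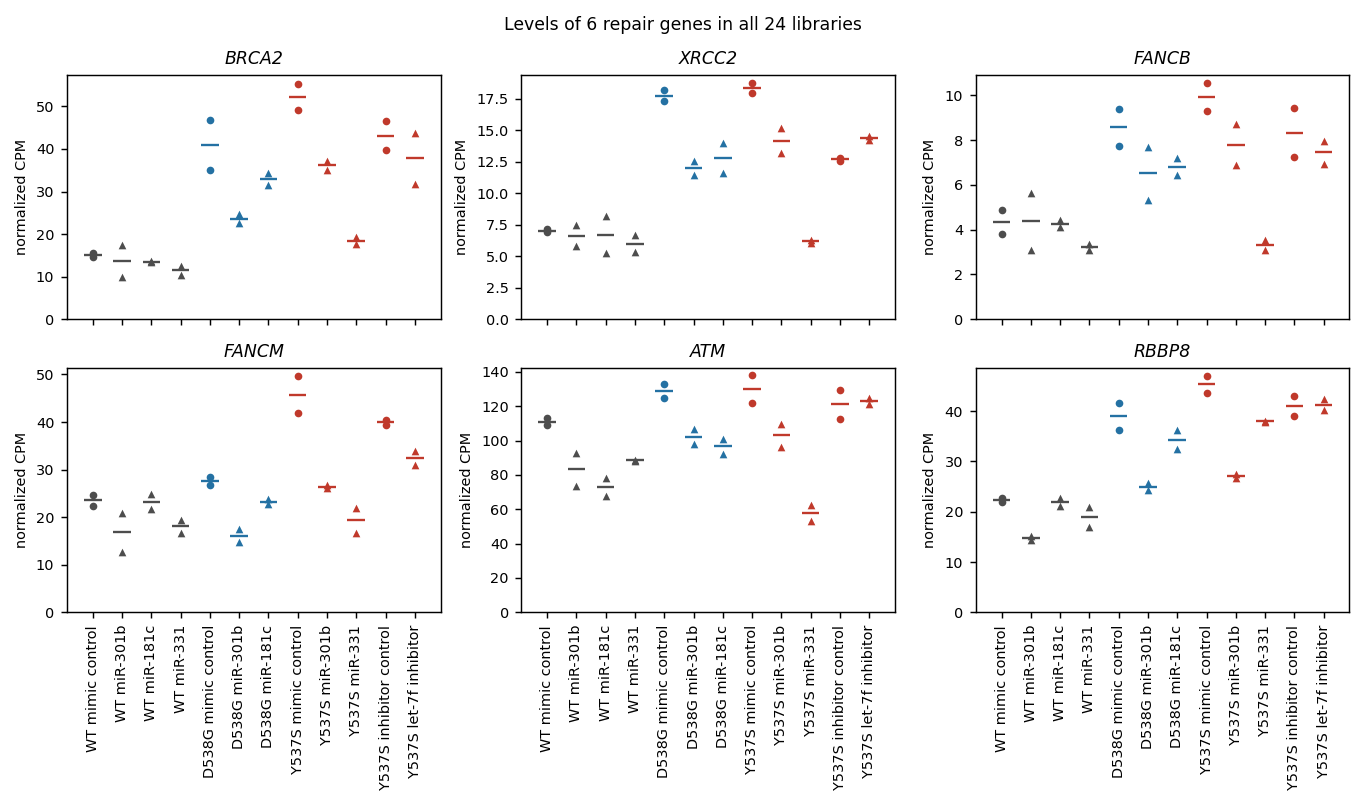
Normalized level (CPM) of BRCA2, XRCC2, FANCB, FANCM, ATM and RBBP8 in all 24 libraries, by condition along the horizontal axis; circles are negative control libraries, triangles libraries with a mimic or inhibitor, dashes the means of 2, in grey for WT, blue for D538G and red for Y537S cells. BRCA2, XRCC2, FANCB and ATM lie lowest among the Y537S conditions with the miR-331 mimic, and RBBP8 lies lowest in each genotype with the miR-301b mimic.

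The other mediators moved less under miR-331 in Y537S cells. BRCA1 fell from 123 and 128 to 72.8 and 80.6 CPM (-0.70 ± 0.10, edgeR adjusted p = 0.00862) and PALB2 from 42.2 and 43.4 to 29.01 and 29.8 CPM (-0.53 ± 0.10, edgeR adjusted p = 0.0159), while BRIP1 fell by 1.53-fold and BARD1, at -0.30 ± 0.10, was not called. Of the resection genes DNA2 and RAD50 fell, by 1.86 and 1.59-fold, and RBBP8, at 38.1 and 37.9 CPM beside 46.97 and 43.6, was not called. RAD54B and RAD51AP1, which both help to form the joint molecule, fell by 1.78 and 1.63-fold, EME1 by 1.69-fold and FANCL by 1.66-fold. FANCA, the 1 member with a miR-331 match that was called lower, went from 50.04 and 51.01 to 30.4 and 36.2 CPM (-0.58 ± 0.12, edgeR adjusted p = 0.0196). The ATR branch fell at the kinase, from 111 and 111 to 62.7 and 70.8 CPM (-0.72 ± 0.10, edgeR adjusted p = 0.00837), and at TOPBP1, by 1.41-fold, but CHEK1 (113 and 117 CPM beside 135 and 153) and CHEK2 were not called.

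FANCG, a core complex subunit, was the member that rose, from 51.4 and 44.9 to 67.9 and 60.8 CPM (0.44 ± 0.11, edgeR adjusted p = 0.0335). FANCD2 was 118 and 95.5 CPM beside 122 and 107, MSH6 200.2 and 208 beside 197 and 209.6 and SLX4 39.7 and 44.4 beside 49.3 and 50.3, and none of the 3 was called. The other members with a miR-331 match were at log2 fold changes of -0.46 ± 0.19 (BLM), -0.12 ± 0.21 (FANCC), 0.26 ± 0.13 (FANCF) and 0.17 ± 0.19 (RAD51D), and none was called. Thus 1 of 6 members with a miR-331 match and 16 of 32 without were lower, beside 11.5% of 2045 genes with a match and 15.9% of 11145 without. When the model held the clone as a block, 29 members and 60.7% of all genes were called.

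In WT cells given miR-331, 13 members fell and none rose (edgeR, adjusted p under 0.05), 34.2% beside 24.8% of 15140 genes (10.6% lower), with a members' median of -0.23. EXO1 fell from 25.3 and 28.98 to 16.7 and 18.8 CPM in clones D1 and D4 (-0.59 ± 0.11, edgeR adjusted p = 0.00344), RAD54B from 18.8 and 17.6 to 12.5 and 11.8 CPM (-0.56 ± 0.12, edgeR adjusted p = 0.00564) and BRCA1 from 48.5 and 47.8 to 35.7 and 33.9 CPM (-0.44 ± 0.08, edgeR adjusted p = 0.00227). The treated and control clones did not overlap in these genes. BARD1, RAD50, NBN, DNA2, FANCM, FANCI, ATM, TOPBP1, MSH6 and PMS2 also fell, by 1.204-fold (TOPBP1) to 1.28-fold (FANCM). ATM was 88.3 and 88.7 CPM beside 113 and 109 and MSH6 143 and 125 beside 172 and 166. BRCA2 was 10.46 and 12.4 CPM beside 15.6 and 14.7 and was not called, nor were PALB2 (28.3 and 28.4), RBBP8 (20.9 and 16.96), FANCD2 (37.9 and 39.4), ATR (74.2 and 76.4), CHEK1 (70.8 and 72.99) and SLX4 (50.9 and 47.2 CPM). Among all genes, 11.9% of 2048 with a miR-331 match and 11.7% of 11207 without were lower. None of the 6 members with a match was called here (log2 fold changes of -0.24 to 0.08), beside 13 of 32 without. The count was 6 without either mimic library and 8 without the D1 control library.

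The response to miR-331 was then compared across genotypes in 1 fit, with the log2 fold change of WT cells subtracted from that of Y537S cells. BRCA2 (-1.12 ± 0.17), XRCC2 (-1.37 ± 0.22), FANCB (-1.18 ± 0.29), FANCM (-0.89 ± 0.22), ATM (-0.86 ± 0.13) and ATR (-0.54 ± 0.12) fell more in Y537S than in WT cells (edgeR adjusted p = 0.00779, 0.00956, 0.0406, 0.0396, 0.00806 and 0.0275). These were 6 of 38 members (15.8%) beside 9.94% of 15666 genes called and 6.47% called lower. No member was called with a larger rise. The count depended on single libraries: it was 0 without the WT clone D4 mimic negative control, 1 without the WT clone D1 miR-331 library and 9 without the Y537S clone 2 miR-331 library. With the clone as a block 17 members were called (34.1% of genes).

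RBBP8 fell with the miR-301b mimic in each of the 3 genotypes, but with the GC correction described further on it was called in WT cells alone. The gene (chr18:20513291-20606449, hg19) went from 46.97 and 43.6 to 27.5 and 26.7 CPM in Y537S clones 1 and 2, from 36.3 and 41.6 to 24.3 and 25.7 CPM in D538G clones A5 and C2 and from 21.9 and 22.8 to 15.1 and 14.3 CPM in WT clones D1 and D4. Every treated clone lay below every control clone of its genotype. The log2 fold changes were -0.76 ± 0.10, -0.64 ± 0.11 and -0.61 ± 0.11 (SE; edgeR adjusted p = 0.0280, 0.00922 and 0.0187), and the gene holds the match shown above in a 3′UTR of 246 bases. Without any 1 of the 4 Y537S libraries it was not called in those cells. Its responses in the mutants were not called as different from that in WT cells (differences of -0.14 ± 0.15 in Y537S and -0.03 ± 0.16 in D538G cells).

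In D538G cells 13 members fell with miR-301b and none rose (edgeR, adjusted p under 0.05), 34.2% beside 11.8% of 14845 genes (6.49% lower), with a members' median of -0.29. BRCA2 fell from 34.98 and 46.7 to 24.7 and 22.5 CPM (-0.79 ± 0.14, edgeR adjusted p = 0.0104) and FANCM from 26.7 and 28.5 to 17.4 and 14.8 CPM (-0.78 ± 0.13, edgeR adjusted p = 0.00750), and neither has a miR-301b match in its canonical transcript. RAD51AP1 fell from 13.1 and 13.6 to 7.47 and 9.37 CPM (-0.66 ± 0.17, edgeR adjusted p = 0.0358). Of the 8 members with a match, 6 fell: RBBP8, XRCC2 (17.3 and 18.2 to 12.5 and 11.4 CPM), NBN (155 and 161 to 123 and 112), FANCA (36.9 and 38.4 to 29.2 and 28.02), TOPBP1 (154 and 160.3 to 121 and 123) and ATM (125 and 133 to 107 and 97.7). Of the 30 without a match 7 fell, and among all genes 18.4% of 2116 with a match and 5.08% of 10975 without were lower. RAD51B (8.17 and 8.72 CPM beside 7.99 and 8.68) and RAD51D (13.8 and 13.5 beside 13.6 and 10.6), the 2 others with a match, were not called.

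BARD1, BRIP1, DNA2 and EXO1 also fell in D538G cells, by 1.26 to 1.35-fold. BRCA1 was 91.7 and 108 CPM with the mimic beside 113 and 132, PALB2 32.6 and 36.5 beside 39.7 and 44.04, FANCD2 85.4 and 89.7 beside 89.04 and 98.2 and ATR 93.2 and 86.3 beside 106 and 113, and none of the 4 was called. CHEK1 (98.02 and 96.8 CPM), MSH6 (168 and 170.2) and SLX4 (61.3 and 54.4) were not called either. The count was 4 without the control library of clone C2, 5 without the mimic library of C2 and 8 without the mimic library of A5, beside 14 without the control library of A5. The clone as a block gave 23 members (33.3% of genes).

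In Y537S cells 3 members fell with miR-301b (edgeR, adjusted p under 0.05), 7.89% beside 3.57% of 15145 genes (2.34% lower), with a members' median of -0.21: FANCM from 49.6 and 41.9 to 26.7 and 26.2 CPM (-0.81 ± 0.12, edgeR adjusted p = 0.0302), RBBP8, and BRCA2 from 55.2 and 49.3 to 37.2 and 35.04 CPM (-0.56 ± 0.10, edgeR adjusted p = 0.0493). In all 3 genes the treated clones lay below the control clones. The other members with a match were not called, at log2 fold changes of -0.36 ± 0.11 (ATM), -0.29 ± 0.09 (FANCA), -0.40 ± 0.08 (NBN), -0.24 ± 0.14 (RAD51B), 0.30 ± 0.18 (RAD51D), -0.24 ± 0.09 (TOPBP1) and -0.40 ± 0.14 (XRCC2). Thus 1 of 8 members with a match and 2 of 30 without were lower. Among all genes, 9.45% of 2138 with a match and 1.36% of 11201 without were lower. BRCA1 was 121 and 112 CPM, PALB2 38.7 and 31.7, FANCD2 129 and 102, ATM 109.9 and 96.3, ATR 94.9 and 85.4, CHEK1 145 and 128, MSH6 201 and 187 and SLX4 57.7 and 57.7 CPM. These calls rested on all 4 libraries: 0 members were called without either clone 1 library and 1 without either clone 2 library. Blocking on the clone gave 22 members, beside 38.4% of genes.

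In WT cells 2 members fell with miR-301b (edgeR, adjusted p under 0.05), 5.26% beside 8.50% of 15113 genes (3.87% lower), with a members' median of -0.05. They were RBBP8 and NBN, both with a match, NBN going from 164 and 164 to 129.9 and 126 CPM (-0.36 ± 0.07, edgeR adjusted p = 0.0238). Thus 2 of 8 members with a match and 0 of 30 without were lower. Among all genes, 15.8% of 2138 with a match and 2.10% of 11093 without were lower. BRCA2 differed between the treated clones, at 17.4 and 9.95 CPM beside 15.6 and 14.7, as did FANCM at 20.9 and 12.8 beside 24.7 and 22.4, and neither was called. BRCA1 was 51.4 and 43.6 CPM, PALB2 29.1 and 26.1, FANCD2 56.9 and 47.2, ATM 92.7 and 73.8, ATR 77.4 and 75.2, CHEK1 92.9 and 80.6, MSH6 155 and 155 and SLX4 54.9 and 51.02 CPM. The remaining members with a match stood at log2 fold changes of -0.13 ± 0.10 (FANCA), 0.05 ± 0.13 (RAD51B), 0.27 ± 0.14 (RAD51D), -0.07 ± 0.08 (TOPBP1) and -0.08 ± 0.19 (XRCC2). The count was 5 without the D1 mimic library, 1 without the D1 control and 0 without the D4 control. Blocking on the clone gave 12 members (28.2% of genes). No member was called as responding differently to miR-301b in Y537S or in D538G cells than in WT cells (edgeR and DESeq2, 0 members each), beside 0.00632% and 0.00640% of genes called. At the looser threshold of an unadjusted p under 0.05 there were 2 and 6 members. Those counts are given without the share of all genes at that threshold and are not comparable with the shares called.

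With the miR-181c mimic, ATM and NBN, both holding a match, fell in the 2 genotypes tested, but with the GC correction only ATM in WT cells was still called. ATM went from 125 and 133 to 101 and 92.4 CPM in D538G clones and from 113 and 109 to 78.00 and 67.6 CPM in WT clones, log2 fold changes of -0.41 ± 0.08 and -0.62 ± 0.09 (edgeR adjusted p = 0.0165 and 0.00140). NBN went from 155 and 161 to 119 and 113 CPM and from 164 and 164 to 117 and 126 CPM (-0.44 ± 0.08 and -0.45 ± 0.07, edgeR adjusted p = 0.00978 and 0.00374). No treated clone overlapped a control clone of its genotype. BARD1 fell as well, from 54.8 and 56.7 to 38.7 and 39.5 CPM in D538G and from 33.8 and 29.6 to 21.4 and 21.9 CPM in WT clones (-0.51 ± 0.09 and -0.57 ± 0.11, edgeR adjusted p = 0.00853 and 0.00668), and so did RAD50, by 1.26 and 1.22-fold. Neither has a match in its 3′UTR, but BARD1 holds 2 and RAD50 1 elsewhere in the canonical transcript. A miR-181c match stood anywhere in the transcript in 19 members, beside 29.4% of genes with a 3′UTR.

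In D538G cells these 4 genes, BRCA1 and TOPBP1 made 6 members lower (edgeR, adjusted p under 0.05), 15.8% beside 9.52% of 14826 genes (3.95% lower), with a members' median of -0.15. BRCA1 fell from 113 and 132 to 89.9 and 92.6 CPM (-0.42 ± 0.09, edgeR adjusted p = 0.0219). TOPBP1, the third member with a match to fall, went from 154 and 160.3 to 121 and 118 CPM (-0.39 ± 0.07, edgeR adjusted p = 0.0132), whereas CHEK1 (111 and 115 CPM beside 106 and 122), FANCM (22.8 and 23.8 beside 26.7 and 28.5) and SLX4 (59.7 and 51.2 beside 57.1 and 57.2) have a match and were not called. Thus 3 of 6 members with a match in the 3′UTR and 3 of 32 without were lower. The 3 without were BARD1, RAD50 and BRCA1, and BRCA1 too holds matches, 2 of them, elsewhere in its canonical transcript. Among all genes, 14.7% of 2784 with a match and 1.61% of 10295 without were lower. BRCA2 was 34.4 and 31.5 CPM, PALB2 33.8 and 31.2, RBBP8 32.4 and 36.2, FANCD2 82.5 and 86.8, ATR 96.3 and 88.3 and MSH6 164 and 171 CPM. The count was 1 without the C2 mimic library, 3 without the C2 control and 4 and 8 without the mimic and control libraries of A5. The clone as a block gave 14 members (29.3% of genes).

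In WT cells 4 members were lower and 1 higher with miR-181c (edgeR, adjusted p under 0.05), 13.2% beside 16.4% of 14968 genes (8.28% lower, 8.10% higher), with a members' median of -0.03. RAD51D was the member that rose, from 9.92 and 10.03 to 15.8 and 13.2 CPM (0.53 ± 0.15, edgeR adjusted p = 0.0366). The members with a match other than ATM and NBN were at log2 fold changes of 0.09 ± 0.07 (CHEK1), -0.03 ± 0.11 (FANCM), 0.15 ± 0.09 (SLX4) and -0.15 ± 0.08 (TOPBP1). Thus 2 of 6 members with a match and 2 of 32 without were lower. Among all genes, 26.8% of 2797 with a match and 4.41% of 10342 without were lower. BRCA1 was 47.3 and 39.95 CPM, BRCA2 13.3 and 13.6, PALB2 33.6 and 29.9, RBBP8 22.6 and 21.2, FANCD2 50.02 and 41.8, ATR 89.02 and 78.04 and MSH6 177 and 143 CPM, and none was called. The count was 2 and 3 without the D1 and D4 control libraries. The clone as a block gave 8 members (27.9% of genes). No member was called as responding differently to miR-181c in D538G than in WT cells (edgeR and DESeq2, 0 members each), beside 0.00646% of genes called. At an unadjusted p under 0.05 there were 4 members, given without the share of all genes at that looser threshold.

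No member was called with the let-7f inhibitor in Y537S cells (edgeR and DESeq2, 0 members each, 2 at an unadjusted p under 0.05), beside 0.0% of 15140 genes, 786 of which had an unadjusted p under 0.05. The members' median log2 fold change was 0.02. CHEK1 was 132 and 131 CPM with the inhibitor beside 139.6 and 138 with the inhibitor negative control, DNA2 45.99 and 46.8 beside 45.1 and 47.1 and RAD51D 15.8 and 15.3 beside 13.3 and 17.5, the 3 members with a let-7f match. BRCA1 was 109.7 and 116 CPM beside 105 and 101, BRCA2 43.8 and 31.9 beside 46.6 and 39.7 and ATM 125 and 122 beside 129 and 113. A model with the clone as a block called 3 members, beside 11.2% of genes.

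**Figure D3:**
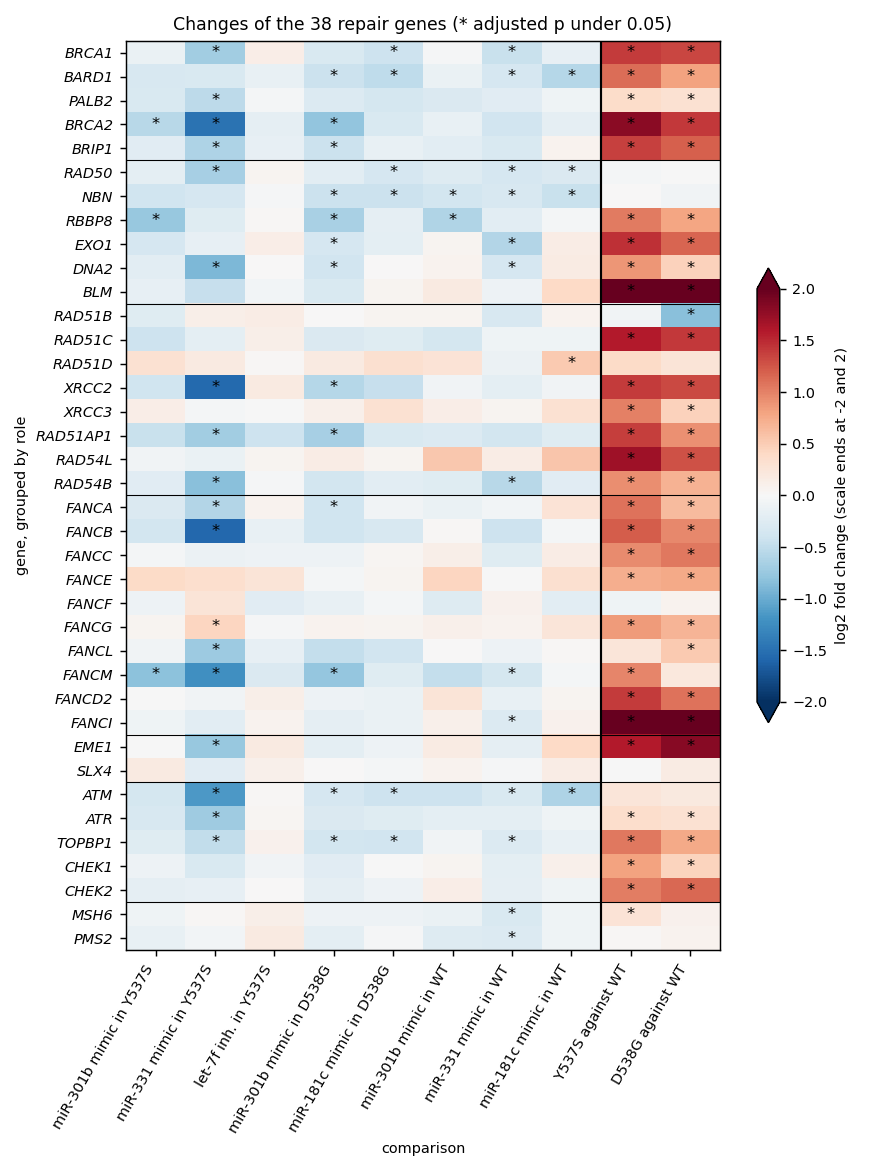
Log2 fold change of each of the 38 repair genes (rows, grouped by role) in the 8 treatment comparisons and, right of the vertical line, in the mutants against WT cells with the mimic negative control; blue is lower, red higher, the colour scale ends at -2 and 2, and stars mark an edgeR adjusted p under 0.05. The 2 columns on the right are mostly red, the columns of the mimics in the mutants and of miR-331 in WT cells are mostly blue, those of the let-7f inhibitor and of the other mimics in WT cells are mixed, and BRCA2, XRCC2 and FANCB under miR-331 in Y537S cells are the darkest blue cells.

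Across the 8 treatment comparisons 24 members were called lower at least once and 2 (RAD51D and FANCG) called higher, which were 63.2% and 5.26% of members, beside 28.6% and 26.7% of the 14071 genes tested in all 8. The other 12 were called in none: BLM, RAD51B, RAD51C, XRCC3, RAD54L, FANCC, FANCE, FANCF, FANCD2, SLX4, CHEK1 and CHEK2. Mimic comparisons within a genotype share their control libraries. Changes under the mimics varied with the base composition of the transcript. Members were poor in GC (median 41.9% GC, range 35.8% to 62.8%, beside 48.7% over 22024 genes) and long (median 4430 bases beside 2659). Over the 38 members the Spearman correlation of log2 fold change with GC was 0.74 for both mimics in Y537S cells, 0.83 for miR-301b and 0.67 for miR-181c in D538G cells. In WT cells it was 0.68 with the miR-331 mimic and 0.59 with each other mimic, and it was 0.51 for the let-7f inhibitor. Members of 1 comparison share their libraries, and the same relation ran across all genes with a transcript (0.22 to 0.62 in the 8 treatments). It was near 0 over the members in the genotype comparisons, at -0.13 in Y537S and -0.07 in D538G cells. The part of GC content in the changes was not tested beyond the corrected fits.

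**Figure D4:**
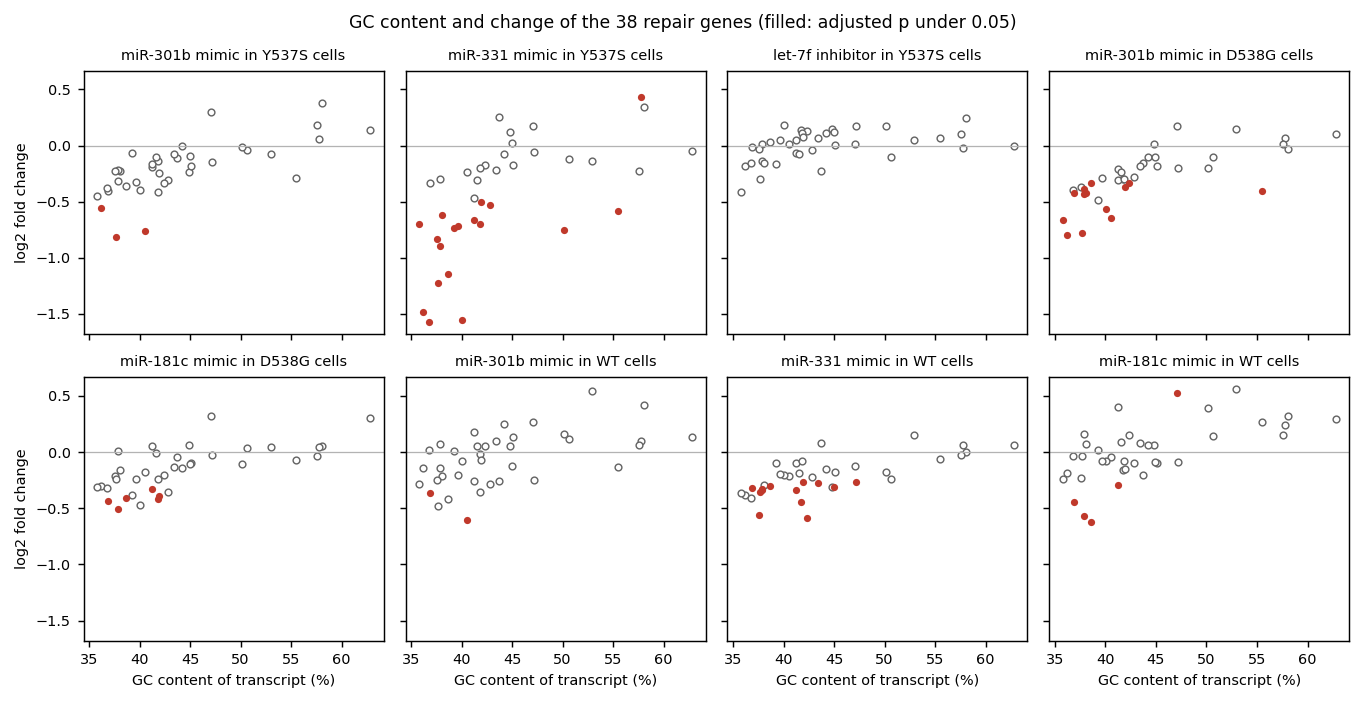
Log2 fold change of the 38 repair genes against the GC content of the canonical transcript (%), 1 panel per treatment comparison on shared axes; filled red points have an edgeR adjusted p under 0.05. Points climb from lower left to upper right in the mimic panels, with most red points under 45% GC, and the panel of the let-7f inhibitor holds no red point.

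When the GC trend of each library was removed, 13 members were called under miR-331 in Y537S cells, all lower, beside 22.5% of genes. They included BRCA2 (-0.88), XRCC2 (-1.18), FANCB (-1.01), FANCM (-0.72), ATM (-0.69), EME1 (-0.81), FANCA (-0.76) and BRCA1 (-0.41, all log2 fold changes). With miR-301b the correction left 1 call in D538G cells (FANCA, -0.54; 1.48% of genes called), 1 in WT cells (RBBP8, -0.45; 4.90%) and none in Y537S cells (0.158%). It left 2 with miR-331 in WT cells (BRCA1 and EXO1, both lower; 6.39%) and none with miR-181c in D538G cells (1.52%). With miR-181c in WT cells ATM was lower and RAD51D, DNA2 and CHEK1 higher (7.51%). In the comparison of miR-331 responses between Y537S and WT cells BRCA2, XRCC2 and ATM remained more strongly lowered, FANCB, FANCM and ATR were no longer called, and NBN and EXO1 were called higher (12.6%). With both the correction and the clone in the model, RBBP8, BRCA2, FANCM and FANCA were lower under miR-301b in Y537S and in D538G cells. Those fits called 7 members in Y537S cells (18.4% beside 28.9% of all genes) and 6 in D538G cells (15.8% beside 18.1%). The members were thus called less often than all genes there. For miR-331 in Y537S cells such a fit called 23 members (60.5% beside 56.0% of all genes). In the genotype comparisons the corrected fits called 29 members higher in Y537S cells (31.6% of genes called) and 29 higher and 1 lower in D538G cells (40.7%).

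The other genes of DNA repair gave a measure of how far the 38 stood with their pathway. Of 97 genes in lists of other recombination and Fanconi, checkpoint, end joining, mismatch and excision repair genes, 46 were higher and 4 lower in Y537S cells (95 tested, median log2 fold change 0.35) and 46 higher and 8 lower in D538G cells (median 0.31). A list of replication and proliferation genes stood above all of these: 37 of 37 were higher in Y537S cells (median 1.198) and 35 of 37 in D538G cells (median 1.08), with TOP2A, the topoisomerase of dividing cells, at 2.02 ± 0.08 in Y537S and MKI67, a marker of cycling cells, at 1.78 ± 0.10 in D538G cells (edgeR adjusted p = 9.09e-05 and 7.02e-06). The part of cell proliferation in the higher levels of the 38 genes was not tested.

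**Figure D5:**
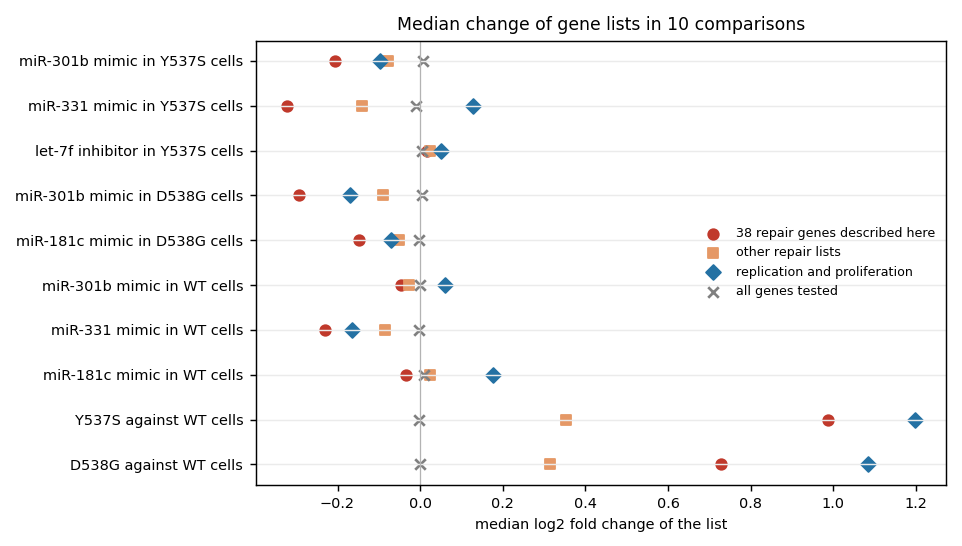
Median log2 fold change (horizontal axis) of the 38 repair genes (circles), 97 other repair genes (squares), 37 replication and proliferation genes (diamonds) and all genes tested (crosses) in each of 10 comparisons. Circles lie left of crosses in the mimic comparisons, while diamonds lie right of crosses under miR-331 in Y537S cells and miR-301b and miR-181c in WT cells, left of them under the other mimics, and far right, with the circles, in both genotype comparisons.

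With miR-331 in Y537S cells 9 of 37 replication and proliferation genes rose (24.3% beside 17.2% of all genes) and 6 fell (16.2% beside 15.8%), with a median of 0.13 beside -0.32 for the 38 members, with CDT1 and MCM2, which license replication origins, rising by 1.07 ± 0.10 and 0.81 ± 0.08 on the log2 scale (edgeR adjusted p = 0.00618 and 0.00618). Other recombination and Fanconi genes in these libraries moved lower, 13 of 36 tested being lower (36.1% beside 15.8% of all genes) and 5 higher (13.9% beside 17.2%; median -0.35). GEN1, a nuclease that resolves recombination junctions, was at -1.26 ± 0.15 and POLQ, the polymerase of an alternative end joining route, at -1.11 ± 0.12 (edgeR adjusted p = 0.00660 and 0.00618). Base and nucleotide excision repair genes went the other way, with 8 of 25 higher (32.0% beside 17.2%) and 1 lower (median 0.13). In WT cells with miR-331, RPA2, a subunit of the protein that coats single strands, fell by 1.03 ± 0.09 on the log2 scale (edgeR adjusted p = 0.000106) and 6 replication and proliferation genes rose and 9 fell (24.3% lower beside 10.6% of all genes), with a median of -0.16 beside -0.23 for the 38 members. With miR-301b in D538G cells 5 replication and proliferation genes fell (13.5% beside 6.49% of all genes), with a median of -0.17 beside -0.29 for the members, as did 5 other recombination and Fanconi genes (13.9%). With miR-181c in WT cells 12 replication and proliferation genes rose (32.4% beside 8.10% of all genes) and 1 fell, with a median of 0.18 beside -0.03.

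The promoters of 34 members were matched in RefSeq (GRCh38.p14, 250 bases before to 50 after the start site). An E2F octamer (TTTCCCGC, TTTCGCGC, TTTGCCGC or TTTGGCGC, either strand), the binding letters of factors that drive S phase genes, stood in 8 of 34 members (EXO1, XRCC2, FANCA, FANCC, FANCD2, TOPBP1, MSH6 and PMS2; 23.5%) beside 3.99% of 27305 genes. The CHR element TTTGAA was in 3 of 34 (8.82% beside 18.2%) and the letters CCAAT in 15 of 34 (44.1% beside 39.7%). The 27305 genes were all genes with a listed promoter and were not limited to genes tested in these cells, whereas every member was tested. The shares thus compare unlike sets. Of the 8 members with the octamer, MSH6 was called higher in Y537S cells only and PMS2 in neither mutant. In all, 27 members were called higher in both mutants, more than the 8 that held the octamer. Whether the octamer goes with the higher levels was not tested. Windows of 30 bases around the octamer are shown for 5 members, chosen because they were higher in both mutants. They are on the gene's strand with the octamer or its complement in capitals. A match describes these letters only.
EXO1, chr1:241848197-241848226 (+): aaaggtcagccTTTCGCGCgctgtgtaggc
XRCC2, chr7:152676102-152676131 (-): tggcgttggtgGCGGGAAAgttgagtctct
FANCD2, chr3:10026424-10026453 (+): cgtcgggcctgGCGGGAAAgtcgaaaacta
TOPBP1, chr3:133661930-133661959 (-): ccgcgcggttgGCGCGAAAgtcggttcccg
FANCA, chr16:89816801-89816830 (-): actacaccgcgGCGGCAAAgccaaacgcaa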

How the data were processed

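RNA-seq of 24 libraries (KAPA Stranded mRNA-Seq kit, poly-A RNA) was analysed. The authors aligned reads to hg19 with HISAT2, converted the alignments with SAMtools and counted them per gene with featureCounts on UCSC Known Genes; the deposited values are raw counts, 1 table per genotype. Tool versions and the strand and multiple-mapping settings are not given in the sources used here. Groups came from the sample titles, which say Y537S where another label field prints Y573S; WT and D538G columns carry clone names that the labels do not, and were assigned to a condition only.

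Counts were fitted with edgeR 4.0.16 (R 4.3.3) by the quasi-likelihood F test with TMM scaling and filterByExpr, using only the libraries of each comparison, 2 against 2, or 8 libraries for a difference of responses. Tests were two-sided, p-values were Benjamini-Hochberg adjusted over all genes tested, and 0.05 was the threshold. An exact permutation test of 2 against 2 cannot go below p = 0.333. SE is the log2 fold change divided by the square root of F. CPM levels used TMM factors over all 24 libraries, so levels set across genotypes rest on tables that were counted alike but deposited separately. Alternatives were DESeq2 1.42.0, other size factors, no filter, a GC correction (lowess, span 0.3), the clone as a block, both together, and leaving out each library. Columns of the same clone were paired because they are the same cell line clone; deviations from the group means correlated at 0.33 to 0.77 within clones. Replicates differed by more than sampling noise (chi-square per degree of freedom 10.7 to 45.6). Scripts were tested on simulated data. All 38 genes may be named. Library values are given for 10 genes fixed as anchors (only some of them for the let-7f inhibitor), for the members with the largest changes and for called members with a seed match. For many uncalled members with a match only the log2 fold change is given. The members, gene lists and tests were chosen with earlier results of these data known. Some items are not reported here.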

Additional observations from a re-analysis of the deposited data

Results flagged for a closer look

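The response to the miR-331 mimic differed between Y537S and WT cells for 6 of the 38 genes by the test of the difference itself (edgeR quasi-likelihood interaction, adjusted p under 0.05), beside 9.94% of all genes called and 6.47% called lower. The differences in log2 fold change, Y537S minus WT, were -1.37 for XRCC2, -1.18 for FANCB, -1.12 for BRCA2, -0.89 for FANCM, -0.86 for ATM and -0.54 for ATR. Each genotype was represented by 2 clones. Leaving out 1 library gave 0 to 9 such genes, and with the GC correction FANCB, FANCM and ATR were no longer called.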

How the results depend on the processing

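Direction did not reverse in any of the 63 followed gene values. These were picked among the values called in the main fit, so a reversal on refitting mostly the same libraries was unlikely from the start. All 63 stayed on their side of the threshold with DESeq2 and with no filter, 62 with other size factors and 37 with the GC correction. The 63 pooled the treatment and response values with 21 genotype values, where GC content and change were nearly unrelated over the members. The 37 therefore does not give the share of treatment and response values that stayed with the GC correction. Of the 42 treatment and response values, 42 stayed with the clone as a block and 38 with block and GC correction. Of 272 values with 1 library left out, 197 stayed; there the lone library of an arm is assumed to vary like the others.

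With the GC correction the members called numbered 0 for miR-301b in Y537S cells, 1 in D538G and 1 in WT cells, 0 for miR-181c in D538G cells and 2 for miR-331 in WT cells. With the clone as a replicate block they were 22 for miR-301b, 29 for miR-331 and 3 for let-7f in Y537S cells, 23 for miR-301b and 14 for miR-181c in D538G cells, 12 for miR-301b and 8 for miR-181c in WT cells and 17 for the miR-331 response in Y537S against WT cells. The block changed no other count by over 1.5 times and lost no call. With block and GC correction they were, beside the share of all genes called, 7 (miR-301b; 28.9%) and 7 (let-7f; 11.2%) in Y537S, 6 (miR-301b; 18.1%) and 11 (miR-181c; 18.2%) in D538G, 10 (miR-301b; 18.96%) and 10 (miR-181c; 16.5%) in WT cells, and 1 (1.21%), 14 (35.9%) and 1 (0.775%) for the responses to miR-301b in Y537S, miR-331 in Y537S and miR-301b in D538G against WT cells. For miR-301b in WT cells DESeq2 called 4 and no filter 6. The cause was not tested.

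Leaving out 1 library gave 0 to 1 members (miR-301b), 12 to 16 (miR-331) and 0 (let-7f) in Y537S, 4 to 14 (miR-301b) and 1 to 8 (miR-181c) in D538G, 0 to 5 (miR-301b), 6 to 12 (miR-331) and 2 to 7 (miR-181c) in WT cells, 24 to 30 for Y537S and 26 to 29 for D538G against WT, 0 to 9 for the miR-331 response and 0 for the other responses. Among cells given miR-301b, 25 members differed between Y537S and WT (20.4% of genes) and 21 between D538G and WT cells (31.4%), and 16 of 21 followed values stayed. No paired analysis was possible for the genotypes because they are different clones.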
